A study of Solanum lycopersicum with 10 samples.

Results

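The outer skin of the tomato fruit (exocarp) was compared with the fleshy wall beneath it (mesocarp) at the mature green stage, before ripening. The comparison rested on 4 of the 10 libraries of the study, 2 from mature green exocarp and 2 from mature green mesocarp, chosen by their tissue labels and not by any measured value. All fruits came from wild-type tomato cv. Ailsa Craig, with no transgene or treatment. Mature green fruits were taken at 30 days post-anthesis. The other 6 libraries, 2 each, came from red fruits at 7 days post-breaker (exocarp and mesocarp) and from pooled leaves, and serve as a point of reference. Poly(A) mRNA was sequenced by a company, and the aim of the study was to find genes and a promoter active in the skin. How many fruits went into a library, and how cleanly the skin was peeled from the flesh, is not given in the sources used here.

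The epidermis of a tomato fruit builds a cuticle out of the polyester cutin, which is filled and covered with waxes made from very-long-chain fatty acids and triterpenoids. Skin cells also make flavonoids from phenylalanine through the phenylpropanoid pathway. The mesocarp holds the vascular bundles that bring sucrose into the fruit, stores starch while the fruit is green, and later softens. Ripening of tomato is driven by the hormone ethylene together with a small set of transcription factors, and it turns on genes for pigments, aroma compounds and cell wall breakdown.

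Levels are given as CPM (counts scaled to a common library size) after TMM scaling, in which the sizes are adjusted so that most genes do not differ, always as replicate 1 and replicate 2. A difference was called at an adjusted p under 0.05 in edgeR's quasi-likelihood test, with the Benjamini-Hochberg adjustment made over the 22801 genes that passed the filter on low counts. Log2 fold changes are exocarp over mesocarp, so that a positive value means higher in the exocarp. In these bulk samples, fewer cells of a type and less RNA per cell cannot be told apart. For 15065 of the genes tested (66.1%), the libraries of the 2 tissues did not overlap, so a lack of overlap is common. In all, 8281 genes (36.3% of those tested) were called, with 3955 (17.3%) higher in the exocarp and 4326 (19.0%) lower there, and these shares are the background for every list that follows. With total counts in place of TMM, higher genes made up 36.5% of the calls instead of 47.8%, and the median gene moved by -0.12 on the log2 scale. Without mesocarp replicate 1 or 2 the count of called genes was 5360 or 5500.

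The files list genes by identifier only. Known tomato genes were gathered in 23 lists with 292 members, and 224 members were used, since their names could be tied to an identifier present in the files. Of these, 219 passed the filter on low counts, 66 were called higher, 51 lower and 102 were not called. Counts of list members below are of those used, unless stated otherwise. The median log2 fold change of the 219 was 0.06, against 0.00 over all genes tested.

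**Figure D1:**
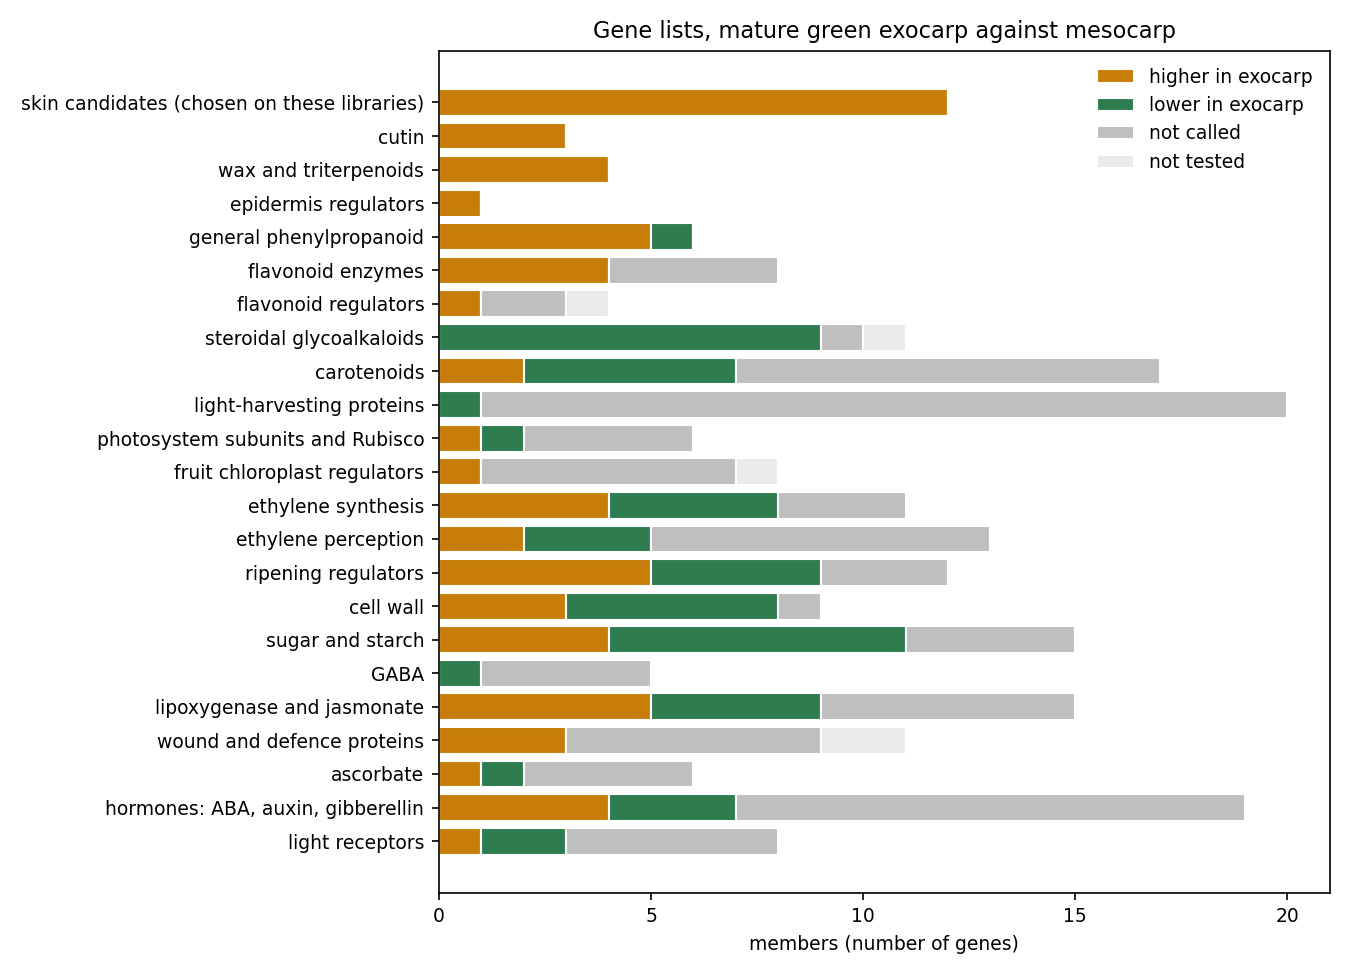
Number of members of each gene list (horizontal axis, genes) that were higher in mature green exocarp, lower in mature green exocarp, not called or not tested, by edgeR's quasi-likelihood test at an adjusted p under 0.05. All 8 cutin, wax and epidermis regulator genes used were higher in the exocarp, with SlCD2 as the only epidermis regulator. These lists held 6, 6 and 7 genes, of which 3, 4 and 1 were used. Of the glycoalkaloid genes, 9 of 11 were lower, and 19 of the 20 light-harvesting genes were not called. The skin candidates were chosen by the study on these same libraries.

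The 2 exocarp replicates were less alike than the 2 mesocarp replicates. Of the genes averaging 10 CPM or more in a tissue, 407 of 11629 were 2-fold or more apart between the exocarp replicates, against 6 of 11539 between the mesocarp replicates. Of the 224 list members, 42 differed at least 2-fold between the exocarp replicates (on CPM + 0.5), against 4 between the mesocarp replicates. The spread used by the test was pooled over all 5 tissues, and a fit of the 4 green libraries alone called 6398 genes. Whether the exocarp replicates came from different plants or harvests is not stated.

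The genes of cutin synthesis were much higher in the skin. All 3 members used, of 6 listed, were called, with a median log2 fold change of 5.69. SlCUS1 (Solyc11g006250.2), the cutin synthase that joins cutin monomers outside the cell, had 2732 and 2259 CPM in mature green exocarp, against 58 and 59.9 CPM in mature green mesocarp (log2 fold change 5.40, standard error 0.16, edgeR adjusted p = 3.11e-07). Ranked by FPKM, which also divides by transcript length, it was the gene at position 16 in green exocarp and at position 2872 in green mesocarp. SlGPAT6 (Solyc09g014350.3), an acyltransferase that attaches cutin monomers to glycerol, had 1098 and 731 CPM in the exocarp and 15.8 and 19.7 CPM in the mesocarp (5.69 ± 0.26 log2, standard error). SlCYP77A20 (Solyc11g007540.2), a cytochrome P450 of a family that hydroxylates cutin monomers, had 449.9 and 336 against 5.92 and 7.75 CPM (5.84 ± 0.22 log2). No exocarp library came within a factor of 10 of a mesocarp library in any of the 3.

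The 4 members used for wax and triterpenoid synthesis, of 6 listed, were also all higher in the exocarp (median 4.87 log2). SlCER6 (Solyc02g085870.3), the condensing enzyme that elongates very-long-chain fatty acids for wax, had 1186 and 874 CPM in exocarp and 20.6 and 25.3 CPM in mesocarp (5.49 ± 0.23 log2). SlTTS1 (Solyc12g006530.2), a triterpenoid synthase, had 241 and 209.6 against 5.65 and 4.26 CPM (5.50 ± 0.18 log2). SlTTS2 (Solyc12g006520.2), its neighbour on the chromosome, had 272 and 228 CPM in exocarp and 16.2 and 16.9 CPM in mesocarp, a smaller difference of 3.92 ± 0.39. These are paralogs, and how reads that fit both were counted is not given. SlABCG42 (Solyc06g065670.4), a membrane transporter of the family that exports cuticle lipids, had 485 and 426 against 24.8 and 23.2 CPM (4.25 ± 0.23 log2). SlCD2 (Solyc01g091630.3), the homeodomain regulator whose loss leaves the fruit with little cutin, had 177 and 196 CPM in exocarp and 19.8 and 19.9 CPM in mesocarp (3.23 ± 0.095 log2). It was the only 1 of 7 listed epidermis regulators that was used, and its difference was the lowest of these 8 cuticle genes. These genes include the skin markers SlCD2, SlCUS1, SlGPAT6, SlCER6 and SlTTS1. All of these followed the tissue labels, and none was at 0 in the mesocarp. SlCYP86A69 and SlSHN3, also listed as skin markers, were not used. The name of the first could not be tied to its identifier, and the second had none in the files.

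**Figure D2:**
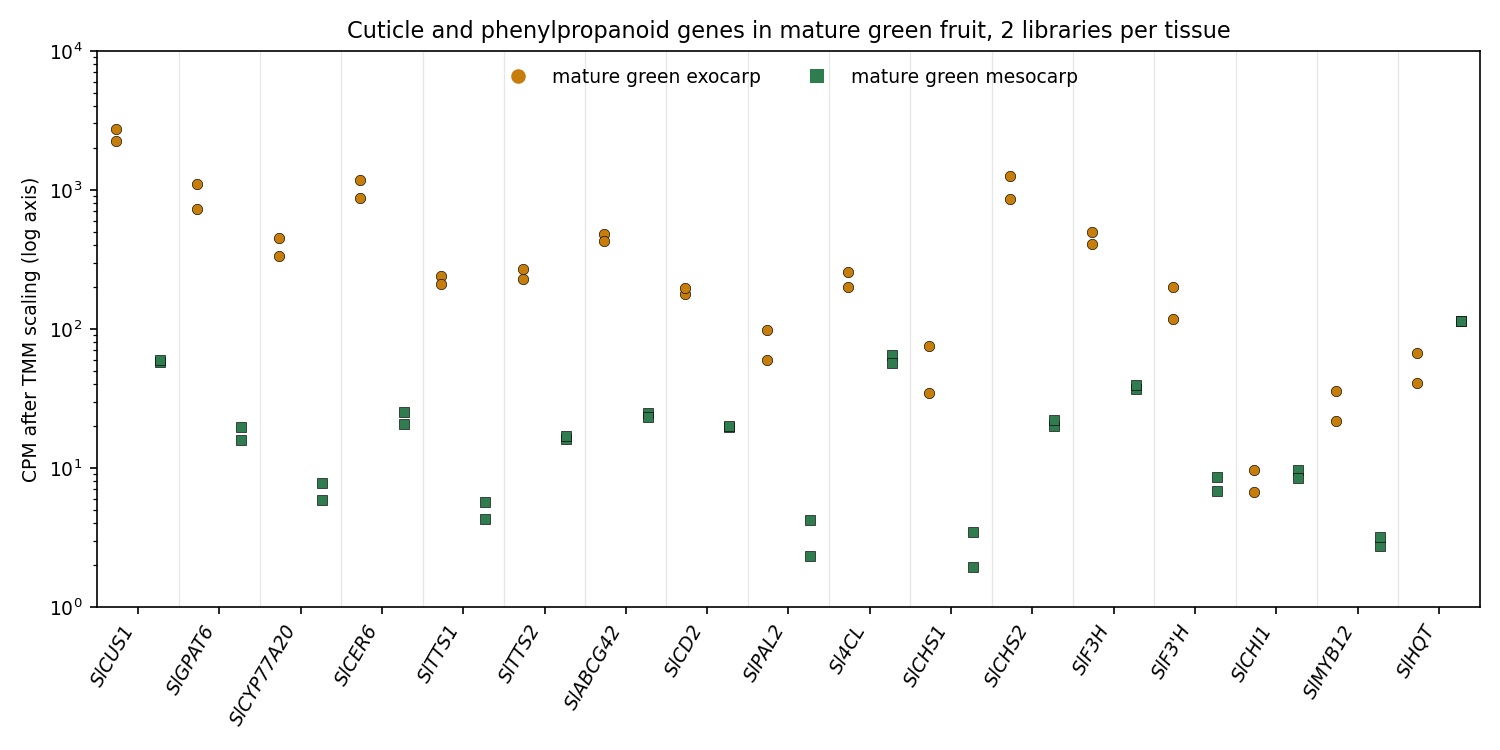
CPM after TMM scaling (vertical axis, log scale) of cuticle and phenylpropanoid genes in the 2 mature green exocarp libraries (circles) and the 2 mature green mesocarp libraries (squares). For SlCUS1 the exocarp libraries lie at 2732 and 2259 and the mesocarp libraries at 58 and 59.9, while SlCHI1 overlaps between the tissues and SlHQT lies lower in the exocarp.

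Upstream of the flavonoids, 5 of the 6 general phenylpropanoid genes used, of 14 listed, were higher in the exocarp and 1 was lower. The 5 include 3 genes of 1 cluster. Cinnamate 4-hydroxylase genes were listed but not used. The first step is made by phenylalanine ammonia-lyase (PAL). A cluster of PAL genes on 1 chromosome gave 574 and 1232 CPM in exocarp and 136 and 128 CPM in mesocarp for Solyc09g007900.4 (2.78 ± 0.30 log2). The same direction held for Solyc09g007910.4, at 329.7 and 719 against 46.4 and 44.2 CPM (3.53 log2), and for Solyc09g007890.1, at 61.6 and 119.6 against 15.4 and 15.3 CPM (2.56 log2). In all 3, both exocarp libraries lay above both mesocarp libraries, and exocarp replicate 2 was the higher one. These are close copies, so the share of each is uncertain. SlPAL2 (Solyc05g056170.3), on another chromosome, went the other way between the replicates, with 98.1 and 59.9 CPM in exocarp and 4.25 and 2.32 CPM in mesocarp (4.59 ± 0.49 log2). Sl4CL (Solyc03g117870.3), the ligase that activates the product for all later branches, had 199 and 258 against 64.6 and 57.0 CPM (1.91 ± 0.12 log2). SlHQT (Solyc07g005760.3), the last enzyme of chlorogenic acid synthesis, was lower in the skin, with 66.6 and 41.1 CPM in exocarp and 115 and 113 CPM in mesocarp (-1.08 ± 0.18 log2, edgeR adjusted p = 0.00216).

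Of the 8 flavonoid enzymes used, of 10 listed, 4 were higher in the exocarp and none was lower. Flavonol synthase was listed but not used. SlCHS2 (Solyc05g053550.3), a chalcone synthase, the entry enzyme of the pathway, had 1265 and 866 CPM in exocarp and 19.9 and 22.3 CPM in mesocarp (5.66 ± 0.22 log2, edgeR adjusted p = 1.09e-06). The second chalcone synthase, SlCHS1 (Solyc09g091510.3), was at a lower level in CPM, with 75.1 and 34.7 in exocarp and 1.93 and 3.46 in mesocarp (4.35 ± 0.40 log2). SlF3H (Solyc02g083860.3), flavanone 3-hydroxylase, had 494 and 410.2 against 37.2 and 39.4 CPM (3.56 ± 0.14 log2), and SlF3'H (Solyc03g115220.4), which adds a hydroxyl group to the flavonoid ring, had 199 and 118 against 6.79 and 8.61 CPM (4.36 ± 0.30 log2). SlCHI1 (Solyc05g010320.4), the chalcone isomerase that acts between chalcone synthase and SlF3H, was not among them and had 9.59 and 6.69 CPM in exocarp and 9.70 and 8.53 CPM in mesocarp, with overlapping libraries (-0.16 log2, edgeR adjusted p = 0.651). Among the regulators, SlMYB12 (Solyc01g079620.4), the MYB factor that drives flavonol and naringenin chalcone synthesis in the peel, had 35.8 and 21.6 CPM in exocarp and 2.75 and 3.20 CPM in mesocarp (3.27 ± 0.24 log2). SlJAF13 (Solyc08g081140.4), a bHLH partner of MYB factors, was not called, at 44.6 and 42.7 against 40.6 and 39.3 CPM (edgeR adjusted p = 0.247).

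The anthocyanin branch split the exocarp replicates. SlDFR (Solyc02g085020.4), dihydroflavonol reductase, had 14.3 and 0.0955 CPM in the exocarp replicates, against 2.35 and 1.97 CPM in mesocarp. SlANS (Solyc08g080040.4), anthocyanidin synthase, had 10.7 and 0.597 against 2.22 and 1.47 CPM. SlF3'5'H (Solyc11g066580.3), which leads to the blue and purple delphinidin types, had 8.78 and 0 against 0.793 and 1.25 CPM, and their MYB regulator SlAN2 (Solyc10g086250.2) had 1.80 and 0 against 0.106 and 0.107 CPM. In each of the 4 genes the mesocarp lay between the 2 exocarp replicates, and none was called, with edgeR adjusted p-values of 0.405, 0.23, 0.373 and 0.174 in this order. Leaving out exocarp replicate 1 gave all 4 a negative log2 fold change, with SlDFR at -4.45 on the log2 scale, and SlDFR, SlF3'5'H and SlANS were then called lower (edgeR adjusted p = 0.000662, 0.00273 and 0.0216). Leaving out replicate 2 put SlDFR at 2.72, and all 4 were then called higher. SlANT1 (Solyc10g086260.3), another MYB activator of anthocyanins, had no count in any of the 10 libraries, which allows at most 3 counts per library, or 0.0692 to 0.0800 CPM in the green ones.

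Other lists also split the exocarp replicates. All 20 light-harvesting protein genes, which encode the antenna of the photosystems, were higher in exocarp replicate 1 than in replicate 2, and 10 of them at least 2-fold. Their summed level was 5177 and 3498 CPM in exocarp, 6248 and 6107 CPM in mesocarp and 75235 and 75042 CPM in leaves. Solyc02g070970.1 had 63.2 and 2.79 CPM in exocarp, against 18.9 and 22.1 CPM in mesocarp. Only 1 of the 20 was called, Solyc03g005760.1, with 1377 and 1118 CPM in exocarp and 2569.5 and 2498 CPM in mesocarp (-1.02 ± 0.17 log2). Without exocarp replicate 1, 19 of the 20 were lower in the exocarp, and without exocarp replicate 2, 10 were higher and 2 were lower. Such a fit leaves the exocarp with 1 library, which is then assumed to vary like the other tissues. Many of these genes, among them Solyc02g070970.1 and Solyc03g005760.1, sit in clusters of close copies, so single members of a cluster are uncertain.

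**Figure D3:**
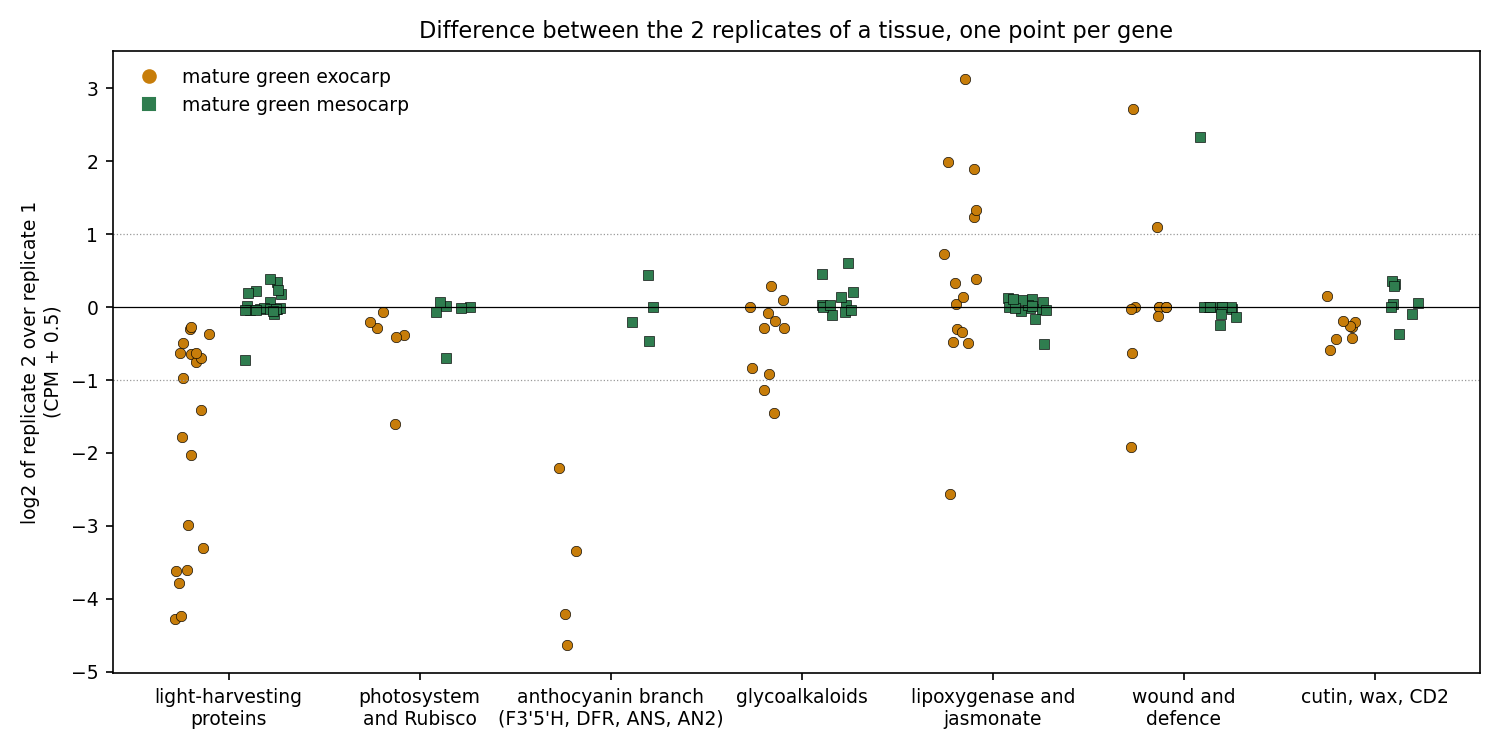
Log2 of replicate 2 over replicate 1 (vertical axis, on CPM + 0.5) for each gene of 7 groups, in mature green exocarp (circles) and mature green mesocarp (squares), with dotted lines at a 2-fold difference. The 20 light-harvesting genes and the 4 anthocyanin genes lie below 0 in the exocarp, several jasmonate genes lie above 1, and the mesocarp points stay within the dotted lines apart from 1 defence gene.

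Of the 6 photosystem and Rubisco genes, 1 was higher, 1 was lower and 4 were not called, a share near the 36.3% called among all genes tested. SlRBCS1 (Solyc02g063150.3), a small subunit of Rubisco, had 82.6 and 63.0 CPM in exocarp and 145 and 146 CPM in mesocarp (-1.0 ± 0.16 log2). Another copy, Solyc02g085950.4, had 36.4 and 11.6 against 8.67 and 5.14 CPM (1.80 ± 0.50 log2). Its log2 fold change was 0.75 without exocarp replicate 1, and it was not called without mesocarp replicate 1 or 2 (edgeR adjusted p = 0.0666 and 0.159). SlRBCS2 (Solyc03g034220.3), another small subunit gene, had 769 and 631 against 441 and 445 CPM and was not called (edgeR adjusted p = 0.0796). Among 8 regulators of fruit chloroplasts only SlHY5 (Solyc08g061130.3), a light-signalling bZIP factor, was called, with 17.2 and 13.5 CPM in exocarp and 8.51 and 9.22 CPM in mesocarp (0.79 ± 0.14 log2). SlGLK2 (Solyc10g008160.3), the factor behind green shoulders, had 3.92 and 1.34 against 4.49 and 6.48 CPM and was not called (edgeR adjusted p = 0.104). Its log2 fold change was -1.06 with all libraries, -2.03 without exocarp replicate 1, where it was called (edgeR adjusted p = 0.0017), and -0.49 without exocarp replicate 2. SlSGR1 (Solyc08g080090.3), which starts chlorophyll breakdown, had 36.2 and 27.6 against 24.8 and 25.9 CPM and was not called either, except without exocarp replicate 2 (0.51 against 0.33 log2 with all libraries, edgeR adjusted p = 0.0057). Of 8 light receptors, the phytochrome SlPHYF (0.47 log2) was higher, and the phytochrome SlPHYB1 (-0.57 log2) and the blue-light receptor SlCRY2 (-0.59 log2) were lower in the exocarp, all by less than 2-fold. The share of light receptors called was also near that of all genes tested.

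Of 15 lipoxygenase and jasmonate genes, 5 were called higher in the exocarp and 4 lower. The 5 that were higher all belong to the jasmonate branch, and all were higher in exocarp replicate 2 than in replicate 1. SlTomLoxD (Solyc03g122340.3), the lipoxygenase that feeds jasmonate synthesis, had 252 and 594 CPM in exocarp and 56.4 and 54.5 CPM in mesocarp (2.93 ± 0.40 log2). SlAOS1 (Solyc04g079730.1), allene oxide synthase, the enzyme that follows, had 33.8 and 299 against 7.90 and 8.45 CPM (4.35 ± 0.88 log2), and SlAOC (Solyc02g085730.3), allene oxide cyclase, had 254 and 419.9 against 89.0 and 89.9 CPM (1.91 ± 0.21 log2). All 6 of these exocarp values lay above both mesocarp values of their gene, although the SlAOS1 replicates differed 8.86-fold.

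Repressors of jasmonate signalling, themselves early jasmonate targets, were also higher. SlJAZ2 (Solyc12g009220.2) had 38.2 and 154 CPM in exocarp and 10.6 and 10.5 CPM in mesocarp (3.18 ± 0.74 log2), and SlJAZ3 (Solyc03g122190.3) had 76.6 and 285 against 35.1 and 38.1 CPM (2.31 ± 0.52 log2). Without exocarp replicate 2 the differences were 2.04 for SlAOS1, 1.85 for SlJAZ2 and 1.06 for SlJAZ3, and all 3 were still called. Without mesocarp replicate 1 they were not called (edgeR adjusted p = 0.0543, 0.081 and 0.075 in the same order), with log2 values of 4.30, 3.19 and 2.25. Without mesocarp replicate 2 SlJAZ2 and SlJAZ3 were not called either, while SlAOS1 was at the threshold. The log2 values were then 3.18, 2.37 and 4.40 in this order. SlOPR3 (Solyc07g007870.3), a later enzyme of the same pathway, had 93.0 and 235 CPM in exocarp and 128 and 127 CPM in mesocarp, so that the mesocarp lay between the exocarp replicates, and it was not called (edgeR adjusted p = 0.455). It was called in opposite directions without exocarp replicate 1 (0.89 log2) and without exocarp replicate 2 (-0.46 log2, edgeR adjusted p = 0.000196 and 0.0159). SlMYC2 (Solyc08g076930.1), the main transcription factor of the response, had 167 and 210.1 against 159 and 156 CPM (edgeR adjusted p = 0.0765), and was called without exocarp replicate 1 (0.42 against 0.26 log2 with all libraries).

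Wound and defence proteins gave 3 of 11 higher and none lower, with 17 listed and 9 of the 11 tested. The share of the 9 that was called was near the 36.3% of all genes tested. Proteinase inhibitor II and beta-1,3-glucanase genes were listed but not used. In the fit of the 4 green libraries alone, 1 of the 9 was called. SlLAPA1 (Solyc12g010020.3), a leucine aminopeptidase induced by wounding, had 5.05 and 36.0 CPM in exocarp and 2.01 and 1.63 CPM in mesocarp (3.50 ± 0.87 log2), and 1.47 without exocarp replicate 2, where it was not called (edgeR adjusted p = 0.121). It was not called without mesocarp replicate 1 or 2 either (edgeR adjusted p = 0.0864 and 0.0999). SlCHI9 (Solyc10g055810.2), a basic chitinase, had 61.1 and 60.2 against 23.8 and 22.3 CPM (1.40 ± 0.23 log2). SlNP24 (Solyc08g080640.2), an osmotin-like protein, had 20.4 and 13 against 0.528 and 4.69 CPM (2.68 ± 0.62 log2). The value was 1.83 without mesocarp replicate 1 and 4.98 without mesocarp replicate 2. SlCHI3 (Solyc02g082920.4), an acidic chitinase, had 5.00 and 0.955 against 0.846 and 0.720 CPM and was not called (edgeR adjusted p = 0.133), except without exocarp replicate 2 (2.67 against 1.93 log2 with all libraries). The called jasmonate genes were thus higher in exocarp replicate 2, and the light-harvesting and anthocyanin genes in replicate 1. What the replicates differ in was not tested.

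The genes of steroidal glycoalkaloids, the bitter defence compounds of green tomatoes such as tomatine, were lower in the skin. Of 11 members, 9 were lower, none was higher, 1 was not called and 1 was not tested, and the median log2 fold change of the 10 tested was -1.41. SlGAME6 (Solyc07g043460.3), a cytochrome P450 early in the pathway, had 9.41 and 3.10 CPM in exocarp and 39.2 and 39.9 CPM in mesocarp (-2.66 ± 0.44 log2). SlGAME4 (Solyc12g006460.2), the P450 that commits intermediates to alkaloids, had 31.4 and 16.4 against 103 and 119 CPM (-2.22 ± 0.29 log2). SlGAME11 (Solyc07g043420.3), a dioxygenase, had 143 and 118 against 319 and 305 CPM (-1.26 log2), and the glycosyltransferases SlGAME18 (Solyc07g043500.1) and SlGAME1 (Solyc07g043490.1) had 28.8 and 12.8 against 63.7 and 58.9 CPM and 19.2 and 15.7 against 34.6 and 35.4 CPM (-1.56 and -1.0 log2). Both exocarp libraries lay below both mesocarp libraries in each of these 5 genes, and 66.1% of all genes tested had no overlap either. SlJRE4 (Solyc01g090340.3), the ERF-type regulator of the pathway, was low in both tissues, with 0.738 and 0.191 CPM in exocarp and 1.11 and 1.71 CPM in mesocarp (-1.58 ± 0.50 log2, edgeR adjusted p = 0.0494). Its log2 fold change was -2.86 without exocarp replicate 1 and -0.93 without exocarp replicate 2, and it was not called without exocarp replicate 2 or either mesocarp replicate (edgeR adjusted p = 0.0686, 0.0846 and 0.231). SlGAME18 was not called without mesocarp replicate 1 or 2 (edgeR adjusted p = 0.0967 and 0.0772). At the mevalonate entry, SlHMGR1 (Solyc02g082260.3) was lower (-0.58 log2) and SlHMGR2 (Solyc02g038740.4) was not called (0.31 log2, edgeR adjusted p = 0.191).

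Some genes known from ripe fruit were present in the mature green mesocarp and close to absent from the exocarp. SlE8 (Solyc09g089580.4), a dioxygenase-like gene used as an ethylene and ripening marker, had 0.231 and 0.263 CPM in mature green exocarp and 80.7 and 115 CPM in mature green mesocarp (-8.62 ± 0.27 log2, edgeR adjusted p = 4.6e-07). In red ripe fruit it had 14367 and 16302 CPM in exocarp and 13615 and 13345 CPM in mesocarp, so the green mesocarp held a small part of the ripe level. SlE8 was higher in green mesocarp replicate 2 than in replicate 1, as were SlNOR, SlRIN, SlACS2, SlPG2a and SlPSY1 below. SlACO4 and SlCEL2 were higher in replicate 1. What the mesocarp replicates differ in was not tested. SlTomLoxC (Solyc01g006540.4), the lipoxygenase behind fatty-acid aroma volatiles, had 2.47 and 0 CPM in green exocarp and 66.4 and 71.6 CPM in green mesocarp (-5.79 ± 0.80 log2). Exocarp replicate 2 held no count of it, and the difference was -4.81 without that library, while without replicate 1 the exocarp had no count left. SlTomLoxB (Solyc01g099190.4), a fruit lipoxygenase of the other positional type, had 30.5 and 21.8 against 167 and 182 CPM (-2.73 ± 0.19 log2), and SlTomLoxA (Solyc08g014000.3) had 468 and 331 against 813 and 809 CPM but was not called (edgeR adjusted p = 0.131). The aroma enzymes SlADH2 (Solyc06g059740.4), an alcohol dehydrogenase, and SlHPL (Solyc07g049690.3), hydroperoxide lyase, were lower in the exocarp by less than 2-fold (-0.68 and -0.48 log2). SlHPL was not called without exocarp replicate 1 or either mesocarp replicate.

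Among the ripening regulators, 5 of 12 were called higher in the exocarp and 4 lower, 5 of these 9 by less than 2-fold. SlNOR (Solyc10g006880.3), a NAC factor required for ripening, had 0.346 and 0.143 CPM in exocarp and 2.48 and 3.60 CPM in mesocarp (-3.61 ± 0.31 log2), low values beside 571 and 561 CPM in red exocarp and 328 and 317 CPM in red mesocarp. SlRIN (Solyc05g012020.4), the MADS-box factor with which it acts, had 4.20 and 4.27 against 0.925 and 4.21 CPM in the green tissues, which overlapped, and was not called (edgeR adjusted p = 0.281). This rested on 1 library, since its log2 fold change was 0.72 with all libraries, 0.0068 without mesocarp replicate 1 and 2.19 without mesocarp replicate 2, where it was called (edgeR adjusted p = 0.00081). SlCNR (Solyc02g077920.4), an SBP-box factor, went the other way, with 251 and 219.7 CPM in exocarp and 82.4 and 84.0 CPM in mesocarp (1.5 ± 0.15 log2). SlMADS1 (Solyc03g114840.3), known as a repressor of ripening, was also higher in the skin, at 149.8 and 121 against 66.0 and 65.5 CPM (1.04 ± 0.12 log2). The other 3 that were higher were SlTAG1 (0.67 log2), an AGAMOUS-type factor, SlDML2 (0.47 log2), the DNA demethylase of ripening fruit, and SlFUL2 (0.24 log2), a FRUITFULL-type factor. SlERF6 (Solyc01g065980.4), an ethylene response factor, had 129 and 136 against 297 and 286 CPM (-1.14 ± 0.081 log2), and SlAP2a (-0.73 log2), a negative regulator of ethylene production, and SlHB1 (-0.53 log2), a homeobox regulator of an ACC oxidase gene, were lower too. SlTAG1, SlFUL2 and SlAP2a were not called without mesocarp replicate 1 or 2, and SlTAG1 and SlFUL2 also not without exocarp replicate 2. SlAP2a differed by -1.18 without exocarp replicate 1 and by -0.39 without exocarp replicate 2. SlTAGL1 (Solyc07g055920.4), needed for both fruit growth and ripening, had 137 and 142 against 152 and 148 CPM and was not called.

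**Figure D4:**
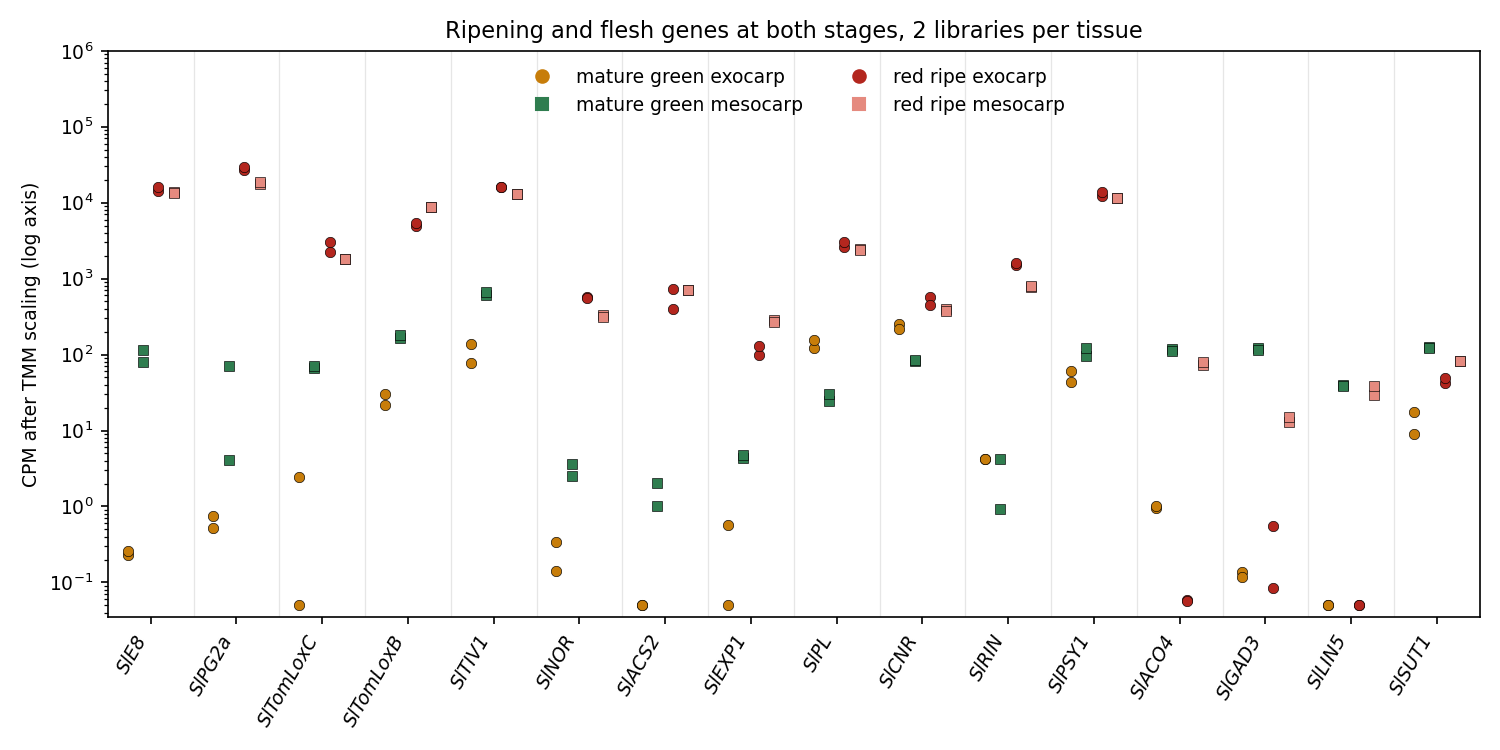
CPM after TMM scaling (vertical axis, log scale, values below 0.05 CPM drawn at 0.05) of ripening and flesh genes in exocarp and mesocarp of mature green and then of red fruit, 2 libraries each. SlE8 lies at 0.231 and 0.263 in green exocarp and at 80.7 and 115 in green mesocarp and is near equal between the red tissues, whereas SlACO4 and SlLIN5 stay lower in the exocarp at both stages.

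Ethylene synthesis divided the 2 tissues by gene copy, with 4 of 11 members higher and 4 lower in the exocarp, SlE8 being 1 of those that were lower. The hormone is made in 2 steps, by ACC synthase (ACS) and ACC oxidase (ACO). SlACS1A (Solyc08g081550.4) had 328 and 772 CPM in exocarp and 11.3 and 12.9 CPM in mesocarp (5.51 ± 0.40 log2), and SlACS4 (Solyc05g050010.3), a ripening ACS, had 7.65 and 5.78 against 0.872 and 1.07 CPM (2.79 ± 0.35 log2). SlACS2 (Solyc01g095080.3), the ACS of full ripening, had no count in either exocarp library and 1.00 and 2.03 CPM in mesocarp, which makes it at least 21.5-fold lower in the exocarp (against 3 counts per library). Among the oxidases, SlACO4 (Solyc02g081190.4) was lower, with 0.945 and 1.03 CPM in exocarp and 119 and 111 CPM in mesocarp (-6.86 ± 0.097 log2, edgeR adjusted p = 1.99e-08). SlACO6 (Solyc02g036350.3) was lower too, at 9.24 and 7.43 against 37.4 and 40.5 CPM (-2.22 ± 0.11 log2). SlACO5 (Solyc07g026650.3) was higher, at 7.45 and 14.3 against 2.67 and 2.72 CPM (2.01 ± 0.35 log2), and SlACO2 (Solyc12g005940.2) was higher at under 1 CPM in every green library, a call lost without any 1 of the 4 green libraries.

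Of 13 genes for the perception of ethylene, 2 were higher and 3 lower in the exocarp, and none of these 5 reached 2-fold. The share called was near the 36.3% of all genes tested. In the fit of the 4 green libraries alone, 3 of the 13 were called. The receptor SlNR (Solyc09g075440.4) had 61.1 and 61.4 CPM in exocarp and 47.1 and 50.1 CPM in mesocarp (0.33 ± 0.079 log2), and the kinase SlCTR1 (Solyc10g083610.2), which the receptors hold active, differed by 0.42 log2. The receptors SlETR2 and SlETR5 and the transcription factor SlEIL2 differed by -0.34, -0.74 and -0.47. The call of SlETR2 was lost when any 1 of the 4 green libraries was left out, those of SlNR and SlCTR1 without mesocarp replicate 1 and that of SlETR5 without mesocarp replicate 2.

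Cell wall enzymes also split. Of 9, 3 were higher and 5 lower in the exocarp. SlPL (Solyc03g111690.4), the pectate lyase that softens ripe fruit, was higher in the skin, with 122 and 154 CPM in exocarp and 24.8 and 30.4 CPM in mesocarp (2.32 ± 0.15 log2). SlTBG4 (Solyc12g008840.2), a galactosidase, had 38.3 and 28.0 against 14.1 and 14.1 CPM (1.24 ± 0.15 log2), and SlEXPA5 (Solyc02g088100.3), an expansin, had 534 and 615 against 300.3 and 284 CPM (0.98 ± 0.13 log2). SlPG2a (Solyc10g080210.2), the polygalacturonase of ripe fruit, had 0.761 and 0.525 CPM in exocarp and 4.07 and 70.0 CPM in mesocarp. The mesocarp replicates were far apart, and the log2 fold change was -5.84 ± 1.23 with both, -6.76 without mesocarp replicate 1 and -2.65 without mesocarp replicate 2. Red ripe tissues had 27161 and 29633 CPM in exocarp and 17478 and 18481 CPM in mesocarp. SlEXP1 (Solyc06g051800.3), the ripening expansin, had 0.576 and 0 against 4.39 and 4.80 CPM in green fruit (-3.96 ± 0.57 log2), and SlCEL2 (Solyc09g010210.3), an endoglucanase, had 1.61 and 0 against 4.33 and 3.52 CPM (-2.26 ± 0.75 log2). The SlCEL2 difference was -1.28 without exocarp replicate 2, and it was not called without mesocarp replicate 1 or 2 (edgeR adjusted p = 0.171 and 0.115). Without exocarp replicate 1, SlEXP1 and SlCEL2 had no exocarp count left. Pectin methylesterase, which prepares pectin for these enzymes, was abundant in both tissues, with 2579 and 1710.4 CPM in exocarp and 5206 and 5021 CPM in mesocarp for Solyc07g064170.3 (-1.25 ± 0.20 log2), and its neighbour Solyc07g064180.4 was also lower (-0.85 log2).

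Of 15 sugar and starch genes, 4 were higher and 7 lower in the exocarp. SlLIN5 (Solyc09g010080.3), the cell wall invertase known to raise sugar in tomato fruit, had 0.0461 and 0 CPM in exocarp and 39.4 and 38.6 CPM in mesocarp. The exocarp values are 2 counts in 1 library and 0 in the other, and the pooled counts were 1661-fold lower there, with a 95% exact interval from 459 to 13722 that covers counting error only. SlSUT1 (Solyc11g017010.2), the sucrose transporter of the phloem, had 8.99 and 17.4 CPM in exocarp, 125 and 120.4 CPM in mesocarp and 1414 and 1442 CPM in leaves (-3.22 ± 0.26 log2 between the fruit tissues). SlTIV1 (Solyc03g083910.5), the vacuolar invertase, had 137 and 77.8 against 603 and 665 CPM (-2.56 ± 0.23 log2), and SlAGPL1 (Solyc01g109790.3), a subunit of the enzyme that makes the starch precursor ADP-glucose, had 50.4 and 45.4 against 201 and 217 CPM (-2.13 ± 0.20 log2). The other 3 that were lower were SlSUT4 (-1.18 log2), a sucrose transporter, SlGBSS (-0.44 log2), a starch synthase, and SlSPS (-0.32 log2), sucrose phosphate synthase. The call of SlGBSS was lost without any 1 of the 4 green libraries, and that of SlSPS without exocarp replicate 2, where it was at -0.20, or either mesocarp replicate. On the skin side, SlSUS1 (Solyc12g009300.3), a sucrose synthase, was abundant in both tissues, with 2338 and 1826 CPM in exocarp and 954 and 937 CPM in mesocarp (1.14 ± 0.12 log2). SlSUT2 (0.59 log2), a sucrose transporter-like protein, and the invertases SlLIN6 (2.84 and 4.37 against 1.08 and 1.33 CPM) and SlLIN8 (under 1 CPM in every green library) were higher too, and SlLIN8 was lost without exocarp replicate 1 or either mesocarp replicate.

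In the pathway of GABA, an amino acid that accumulates in green tomato fruit, 1 of 5 genes was called. SlGAD3 (Solyc01g005000.3), a glutamate decarboxylase, had 0.138 and 0.119 CPM in exocarp (6 and 5 counts) and 123 and 114 CPM in mesocarp (-9.80 ± 0.36 log2, edgeR adjusted p = 8.56e-07). The other decarboxylases did not follow it. SlGAD2 (Solyc11g011920.2) had 353 and 448 against 366 and 374 CPM and SlGAD1 (Solyc03g098240.3) 47.8 and 61.5 against 52.6 and 52.4 CPM, both with overlapping libraries. The breakdown enzymes SlGABA-T1 (Solyc07g043310.3) and SlSSADH (Solyc09g090700.1) differed by -0.26 and 0.17 on the log2 scale and were not called (edgeR adjusted p = 0.095 and 0.074). SlGABA-T1 was called without exocarp replicate 2, at -0.44 log2 (edgeR adjusted p = 0.00604).

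Of 17 carotenoid genes, 2 were higher, 5 were lower and 10 were not called, and the median log2 fold change was -0.14. The 5 that were lower included 2 lycopene cyclases, SlLCYE (Solyc12g008980.3), with 3.23 and 3.65 CPM in exocarp and 14.2 and 17.2 CPM in mesocarp (-2.19 ± 0.12 log2), and SlCYCB (Solyc06g074240.3), with 0.876 and 0.812 against 8.56 and 6.88 CPM (-3.19 ± 0.26 log2). SlCrtR-b1 (Solyc06g036260.3), a carotene hydroxylase, had 17.5 and 9.98 against 43.7 and 44.0 CPM (-1.67 ± 0.21 log2). SlPSY1 (Solyc03g031860.3), the phytoene synthase of ripe fruit, had 59.9 and 44.2 against 94.7 and 123 CPM (-1.06 ± 0.17 log2), well under the 12394 and 13870.3 CPM of red exocarp and 11422 and 11449 CPM of red mesocarp. SlDXR, which supplies the plastid precursors, was lower by less than 2-fold (-0.54 log2). SlBCH2 (Solyc03g007960.3), a second hydroxylase, was higher, at 18.5 and 39.0 against 10.9 and 8.82 CPM (1.54 ± 0.30 log2, or 0.90 without exocarp replicate 2), and SlCYP97A29, a P450 of carotene hydroxylation, was higher by 0.25, a call lost without exocarp replicate 1 or either mesocarp replicate.

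Hormone genes outside ethylene and jasmonate gave 4 higher and 3 lower of 19, a share near the 36.3% called among all genes tested. SlARF10A (Solyc11g069500.2), an auxin response factor, had 211 and 177 CPM in exocarp and 37.5 and 40.4 CPM in mesocarp (2.32 ± 0.13 log2). SlCYP707A1 (Solyc04g078900.3), which breaks down abscisic acid, had 26.4 and 32.4 against 9.43 and 8.71 CPM (1.70 ± 0.13 log2). SlIAA17 (Solyc06g008590.3), an auxin repressor, was lower in the skin, at 3.62 and 4.80 against 11.7 and 12.7 CPM (-1.54 ± 0.24 log2). SlARF7 and SlARF2A were lower by less than 2-fold (-0.82 and -0.54 log2), and SlARF8A was higher by 0.19. SlGA3ox1 (Solyc06g066820.4), a gibberellin synthesis gene, had 0.207 and 0.645 CPM in exocarp and no count in mesocarp, at least 5.35-fold higher, but under 1 CPM. The calls of SlARF8A and SlGA3ox1 were lost without exocarp replicate 2 or either mesocarp replicate, and that of SlARF7 without mesocarp replicate 1. In the ascorbate pathway SlGGP2 was higher (0.44 log2) and SlGME2 lower (-0.55 log2), and the other 4 of 6 were not called, again a share near that of all genes.

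The 12 genes that the study picked as skin candidates were all higher in the exocarp, from 3.40 to 6.76 on the log2 scale, but the study chose them on these same libraries, so this is a description. SlWSD1 (Solyc01g011430.4), like a wax ester synthase, had 15.9 and 13.7 CPM in exocarp and 0.264 and 0.133 CPM in mesocarp. SlBCAD (Solyc06g059840.4), a subunit of a branched-chain keto acid dehydrogenase, had 100.1 and 84.1 against 1.43 and 1.60 CPM (5.92 log2). SlSTK (Solyc08g061250.3), a serine-threonine kinase, had 17.5 and 16.4 against 0.476 and 0.0799 CPM, and SlTSI1 (Solyc09g090990.2) had the least difference of the 12, at 10.3 and 9.93 against 1.19 and 0.720 CPM. SlFP, SlLECRK4 and SlSNL6, of which the first is named after a RING-type finger protein, the next after a lectin receptor kinase and the last after cinnamoyl-CoA reductase, were higher in exocarp replicate 2 than in replicate 1 by 2.93, 3.17 and 2.61 times. The log2 fold changes of the others were 5.28 for SlPR10, 5.55 for SlABCG10, 4.89 for SlHH3, 4.26 for SlIQM2 and 4.94 for SlKIN5D.

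Among 11539 genes averaging 10 CPM or more in mature green mesocarp, 80 had at most 3 counts in each exocarp library, SlLIN5 among them. None of the 11629 genes with at least 10 CPM in mature green exocarp was that low in both mesocarp libraries. Whether skin tissue in the mesocarp samples has a part in this was not tested. Outside the lists, the largest differences belonged to genes without a name in the files. Solyc05g051750.3 had no count in exocarp and 196 and 185 CPM in mesocarp, at least 2706-fold lower, and Solyc09g011710.4 had no count in exocarp and 151 and 133 CPM in mesocarp, at least 2017-fold lower. In the other direction, Solyc07g005370.4 had 13.4 and 10.6 CPM in exocarp and 0.106 and 0 CPM in mesocarp, and Solyc10g054820.2 had 42.7 and 46.9 CPM in exocarp and 0.317 and 0.293 CPM in mesocarp (7.73 and 7.18 log2).

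Whether these differences were particular to the green stage was tested as the difference between the green and the red exocarp-to-mesocarp log2 fold change, with the red libraries independent of the green ones. This difference passed an adjusted p of 0.05 for 4866 genes (21.3% of those tested, edgeR). Of the 219 list members tested, 93 passed. In red fruit itself 37.4% of all genes were called, 18.1% higher and 19.4% lower in the exocarp. Of the stage differences, 10.5% of all genes tested were positive and 10.9% negative. None of the 3 cutin members and 1 of the 4 wax members passed. The 3 cutin genes had at most 2.74 CPM in any red fruit library, so this test says little about them. SlCYP77A20 went from 5.84 log2 in green to 3.12 log2 in red fruit (edgeR adjusted p = 0.074 for the difference). SlCUS1 had 1.06 and 1.21 CPM in red exocarp and 0.0478 and 0 CPM in red mesocarp, whereas SlCER6 had 953 and 711 CPM in red exocarp against 8.39 and 10.04 CPM in red mesocarp, and its green minus red difference was -1.01 log2 (edgeR adjusted p = 0.0326).

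The flavonoid contrast was already present before ripening and was larger in red fruit. The green minus red difference was -3.21 for SlF3H, -3.06 for SlMYB12, -2.32 for SlCHS1, -2.05 for SlF3'H and -1.05 for SlCHS2 (edgeR adjusted p = 3.68e-05, 0.000661, 0.015, 0.00759 and 0.0238 in this order). Sl4CL was the reverse, with a contrast in green fruit that the red tissues did not show, at 332 and 324 CPM in red exocarp and 351 and 354 CPM in red mesocarp (2.01 log2, edgeR adjusted p = 0.000168).

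Several ripening genes were lower in the exocarp in green fruit and not in red fruit. The green minus red difference was -8.80 for SlE8, -6.34 for SlTomLoxC, -6.50 for SlPG2a, -4.42 for SlNOR and -2.89 for SlTIV1 (edgeR adjusted p = 5.06e-06, 0.00304, 0.018, 0.000252 and 0.000568), and in the red tissues the log2 fold changes of these 5 genes lay between 0.19 and 0.81. SlEXP1 kept the direction, with 100.1 and 128 CPM in red exocarp and 283 and 268 CPM in red mesocarp, but at a smaller contrast. SlACO4 and SlACO6 were further apart in red than in green fruit (3.43 and 1.85 log2), and SlLIN5 had no count in red exocarp and 29.7 and 38.1 CPM in red mesocarp. The skin excess of SlTomLoxD and SlPL in green fruit was not seen in red fruit, where their log2 fold changes were 0.28 and 0.21 (edgeR adjusted p = 0.622 and 0.27, and 0.0105 and 0.000306 for the difference between stages).

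**Figure D5:**
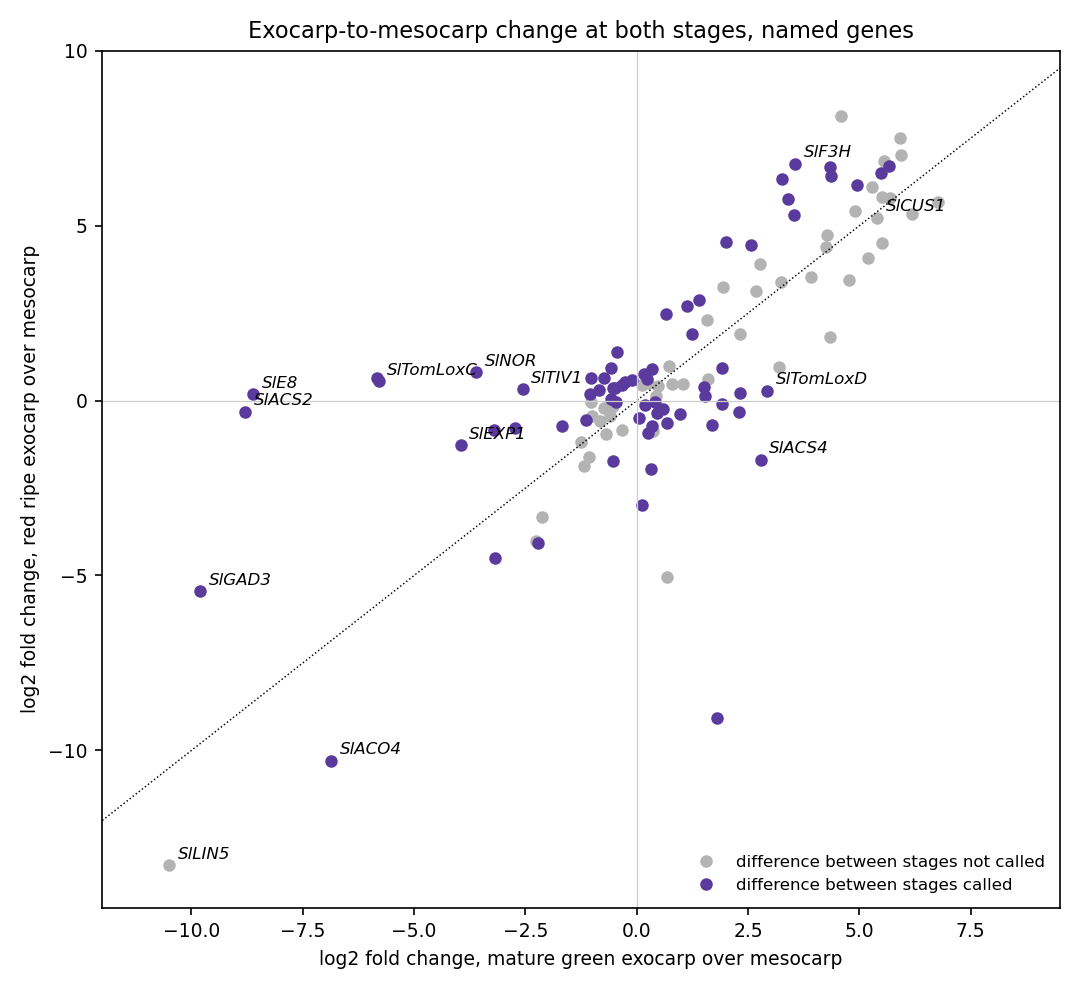
Log2 fold change of exocarp over mesocarp in mature green fruit (horizontal axis) and in red ripe fruit (vertical axis) for 118 named genes averaging 1 CPM or more in some tissue at each stage, with dark points for the 68 genes whose difference between the stages was called and a dotted line where both changes are equal. SlE8 and SlTomLoxC lie far to the left near 0 on the vertical axis, and SlF3H lies above the dotted line. SlCUS1 lies near that line, but at only 1.06 and 1.21 CPM in red exocarp and 0.0478 and 0 CPM in red mesocarp. Points of genes with no count in a tissue, such as SlLIN5, depend on the prior count of the fit.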

How the data were processed

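Exocarp and mesocarp of mature green and red fruit and leaves were sequenced as poly(A) mRNA, 2 libraries each. The authors deposited whole-number read counts per gene and FPKM values, which divide by transcript length and depth. HISAT2 is named in the submitters' processing notes, and its version, the genome build, annotation and counting tool are not given in the sources used here. The kit is not described as stranded, so a gene and an overlapping or antisense partner cannot be told apart, and close copies may share reads.

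Total counts were 38373229 and 38261394 in green exocarp and 31395390 and 30945619 in green mesocarp. Deposited counts were tested with edgeR 4.0.16 (R 4.3.3), with filterByExpr, TMM scaling, 1 coefficient per tissue over all 10 libraries, quasi-likelihood F tests and the Benjamini-Hochberg adjustment. FPKM served for ranks only. DESeq2 1.42.0 was an alternative, beside other scalings, no filter, a stricter threshold, a replicate block and leaving out each library. The test was checked on simulated counts drawn with the same spread in every tissue. That check does not cover exocarp replicates that lie further apart than those of other tissues. Nothing says that replicates came from separate plants beyond being called biological, so p-values measure the spread between these libraries. Counts of 0 were given a floor of 3 counts per library, and intervals cover counting error only.

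Identifiers were named from RefSeq symbols (212 members) or the study (12). Of the other listed members, 60 had no RefSeq name at a fitting place, 3 had a transcript longer than the RefSeq gene and 5 had no matching identifier. Named by rule were, per list and direction, up to 4 called members with the largest change among those averaging at least 1 CPM in the higher tissue without overlap of libraries, every member where a list or count had 5 or fewer, defining genes that were not called, and outside the lists the 2 largest changes in each direction at 10 CPM or more. Members and lists were chosen with earlier results of these data known, and the text goes beyond the rule for genes chosen after their values were seen, among them SlGAME1, SlGAME11, SlHMGR1, SlSUT4, SlGBSS, SlSPS and the skin candidates outside the 4 largest.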

Additional observations from a re-analysis of the deposited data

Results flagged for a closer look

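The exocarp-to-mesocarp change of 26 named genes called in green fruit differed between the green and the red stage by a log2 difference of at least 2 that passed the test of the difference itself (edgeR, adjusted p under 0.05). Values are green minus red log2 fold changes. More negative in green fruit were SlE8 (-8.80), SlACS2 (-8.48), SlPG2a (-6.50), SlTomLoxC (-6.34), SlNOR (-4.42), SlGAD3 (-4.35), SlTIV1 (-2.89), SlEXP1 (-2.68), SlGAME1 (-2.57) and SlSUT1 (-2.38). Higher in the exocarp at both stages, and further apart in red fruit, were SlF3H (-3.21), SlMYB12 (-3.06), SlACO5 (-2.51), SlTSI1 (-2.37), SlCHS1 (-2.32) and SlF3'H (-2.05).

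More positive in green fruit were SlACS4 (4.48), SlTomLoxD (2.65), SlJAZ3 (2.64), SlCYP707A1 (2.39), SlPL (2.11), Sl4CL (2.01) and, lower in the exocarp at both stages but less so in green fruit, SlACO4 (3.43). The values of SlGA3ox1 (12.59), the Rubisco copy Solyc02g085950.4 (10.88), SlACO2 (6.07) and the SlACS2 value above involve a tissue with no count at one of the stages, so they depend on the fit's prior count and are no bound. SlGA3ox1 had 0.147 and 0 CPM in red exocarp and 4.11 and 3.32 CPM in red mesocarp. The SlGAME1 value rests on low red levels, at 0.824 and 0.478 CPM in exocarp and 0.191 and 0.248 CPM in mesocarp.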

How the results depend on the processing

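The 8281 genes called between green exocarp and green mesocarp were 8433 with DESeq2, 8331 with RLE size factors, 8662 with total counts, 7951 with no filter on low counts, 6398 from the 4 green libraries alone and 3367 when a 2-fold change and an adjusted p under 0.01 were both required. The 4866 calls of the difference between stages were 1784 at that stricter threshold. Of the list members named here that were called between the green tissues, 15 were not called from the 4 green libraries alone. The number lost was 6 with DESeq2, 5 with total counts, 4 with no filter on low counts and 3 with RLE size factors. Leaving out 1 library at a time gave 5360 to 8781 calls between the green tissues and 3067 to 6158 for the difference between stages. The lowest of these came without a mesocarp replicate (5360 and 5500 between the green tissues, 3158 and 3067 for the stages) and, for the stages, also without red mesocarp replicate 1 (3146). Such a fit leaves a tissue with 1 library.

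Of 115 list members named here that were called, 91 were called whichever green library was left out. Of 21 named members that were tested and not called, 12 passed the threshold when some green library was left out. Values that changed sign belonged to genes that were not called with all libraries. Those of Solyc02g070970.1, SlDFR, SlF3'5'H and SlANS without exocarp replicate 1 and of SlOPR3 without exocarp replicate 2 passed the threshold after the change of sign (edgeR adjusted p = 3.58e-06, 0.000662, 0.00273, 0.0216 and 0.0159 in this order). With total counts SlGAD1 was at -0.065 and SlGAD2 at -0.009. Without exocarp replicate 1 and without exocarp replicate 2, the log2 fold changes were -2.87 and 1.62 for Solyc02g070970.1, -0.44 and 0.070 for SlCHI1, -8.20 and 3.10 for SlF3'5'H, -4.45 and 2.72 for SlDFR, -1.62 and 2.52 for SlANS, -4.97 and 4.04 for SlAN2, 0.23 and -0.14 for SlGAD1, 0.28 and -0.071 for SlGAD2 and 0.89 and -0.46 for SlOPR3. The cause was not tested, but exocarp replicate 2 had no count of SlF3'5'H and SlAN2, so their values without replicate 1 depend on the prior count.

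Same-numbered libraries did not deviate together (correlation -0.0174 in green and -0.0445 in red fruit), so the numbers were not taken as pairs. With the replicate block, 7585 genes were called between the green tissues and 4373 for the difference between stages. The block lost 8 named calls, those of SlJRE4, SlACO2, SlETR2, SlFUL2, SlCEL2, SlLIN8, SlGBSS and SlGA3ox1, while SlSPS was at the threshold. With 2 libraries a tissue, a difference that was not called is not shown to be absent.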
